A study of Homo sapiens with 7 samples.

Results

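NCL, NPM1, FBL, NOP56 and NOP58 encode abundant proteins of the nucleolus, and they were taken by name at their RefSeq positions in GRCh38.p14, as 5 of the 19630 protein-coding genes measured here. Each gene was examined from 1 kb before its start to 10 kb after its end, and every peak in that window was listed by library. The data were ChIP-seq peak lists for RNA polymerase II whose C-terminal domain repeat carries phosphate on threonine 4 (pThr4). HEK293 cells, an established human embryonic kidney line, were fixed with formaldehyde, and nuclear lysate was divided and incubated in vitro with SCP1. SCP1 is a phosphatase that removes phosphate from serine 5 (pSer5) of the repeat. One group received active SCP1 (SCP1_WT) and the other received SCP1 D96A, which is catalytically inactive (SCP1_D96A), with 3 biological replicates in each group. Both groups were precipitated with the pThr4 antibody 6D7. The comparison asked where pThr4 becomes detectable once the neighbouring pSer5 is removed. Both groups hold lysate treated with an SCP1 protein, and an IgG control precipitation was not analysed here.

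Nucleolin (NCL) acts in ribosomal DNA transcription and pre-rRNA processing, and nucleophosmin (NPM1) is a chaperone of ribosome assembly that helps to organise the nucleolus. Fibrillarin (FBL) is the methyltransferase of box C/D small nucleolar ribonucleoproteins, and NOP56 and NOP58 are core proteins of the same particles. Small nucleolar RNAs (snoRNAs) guide the modification of ribosomal RNA, and in human cells most are cut out of introns of host genes after splicing. In human cells pThr4 is known as a mark of polymerase near and beyond gene ends.

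RefSeq placed 12 snoRNA genes inside the 5 genes, 3 in NCL, 5 in NOP56 and 4 in NOP58. It placed none inside NPM1 or FBL, so being a snoRNA host applies to 3 of the 5 genes. The mature sequences of 4 of these snoRNAs are shown because they lie on both sides of the place where peaks stopped. SNORD20 and SNORA75, in introns 11 and 12 of the 13 introns of NCL, were overlapped by peaks with active SCP1, whereas SNORD82, in intron 5 of NCL, and SNORD86, in intron 8 of the 11 introns of NOP56, were not overlapped in any library. Sequences are GENCODE transcripts, written 5′ to 3′. Capitals mark box C (TGATGA) and box D (CTGA) of a box C/D snoRNA, or the ACA element 3 bases before the 3′ end of a box H/ACA snoRNA, and in SNORD86 box D alone because the exact TGATGA was not found at its 5′ end.
SNORD82: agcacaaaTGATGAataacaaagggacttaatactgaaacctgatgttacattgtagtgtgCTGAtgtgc
SNORD20: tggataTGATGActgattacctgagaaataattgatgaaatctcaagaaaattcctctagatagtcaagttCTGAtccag
SNORA75: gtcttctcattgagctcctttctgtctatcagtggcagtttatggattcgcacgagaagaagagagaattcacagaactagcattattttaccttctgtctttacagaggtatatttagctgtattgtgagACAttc
SNORD86: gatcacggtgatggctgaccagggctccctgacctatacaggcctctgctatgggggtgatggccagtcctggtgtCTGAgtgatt
In GRCh38, SNORD82 lies at chr2:231460368-231460442, SNORD20 at chr2:231456444-231456523 and SNORA75 at chr2:231455800-231455936, all within NCL on the minus strand. The RefSeq gene of SNORD82 spans 75 bases and the GENCODE transcript shown 70, while the lengths are equal for the other 3. SNORD86 lies at chr20:2656097-2656182 within NOP56 on the plus strand.

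The lists of active SCP1 held 12625, 6680 and 36892 peaks in replicates 1, 2 and 3, and those of inactive SCP1 held 2466, 1163 and 2699. They give no read counts, so depth is unknown. The smallest −log10 q-value was just over 1 in every list, but the p-value at that limit differed by list. The weakest peak had a −log10 p-value of 3.08 to 3.79 in the active group and 4.20 to 4.6 in the inactive group. Any longer or additional peak with active SCP1 therefore came with a more permissive list, and the effects of treatment and cutoff cannot be told apart from the lists alone. Groups were compared by an exact two-sided permutation test over 20 assignments, whose smallest p is 0.1. The test cannot pass 0.05, so a difference is called here where no library of one group overlaps the other. Where results rest on the long list of SCP1_WT replicate 3, values without it are given.

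The windows held 58 peaks, 41 with active SCP1 (15, 10 and 16 in replicates 1, 2 and 3) and 17 with inactive SCP1 (6, 5 and 6). NPM1 had 13 peaks with active and 4 with inactive SCP1, NOP58 had 12 and 1, FBL had 9 and 6, NCL had 4 and 3, and NOP56 had 3 and 3. The excess in number came mostly from NPM1 and NOP58, while at NCL and NOP56 a similar number of peaks differed in length.

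**Figure D1:**
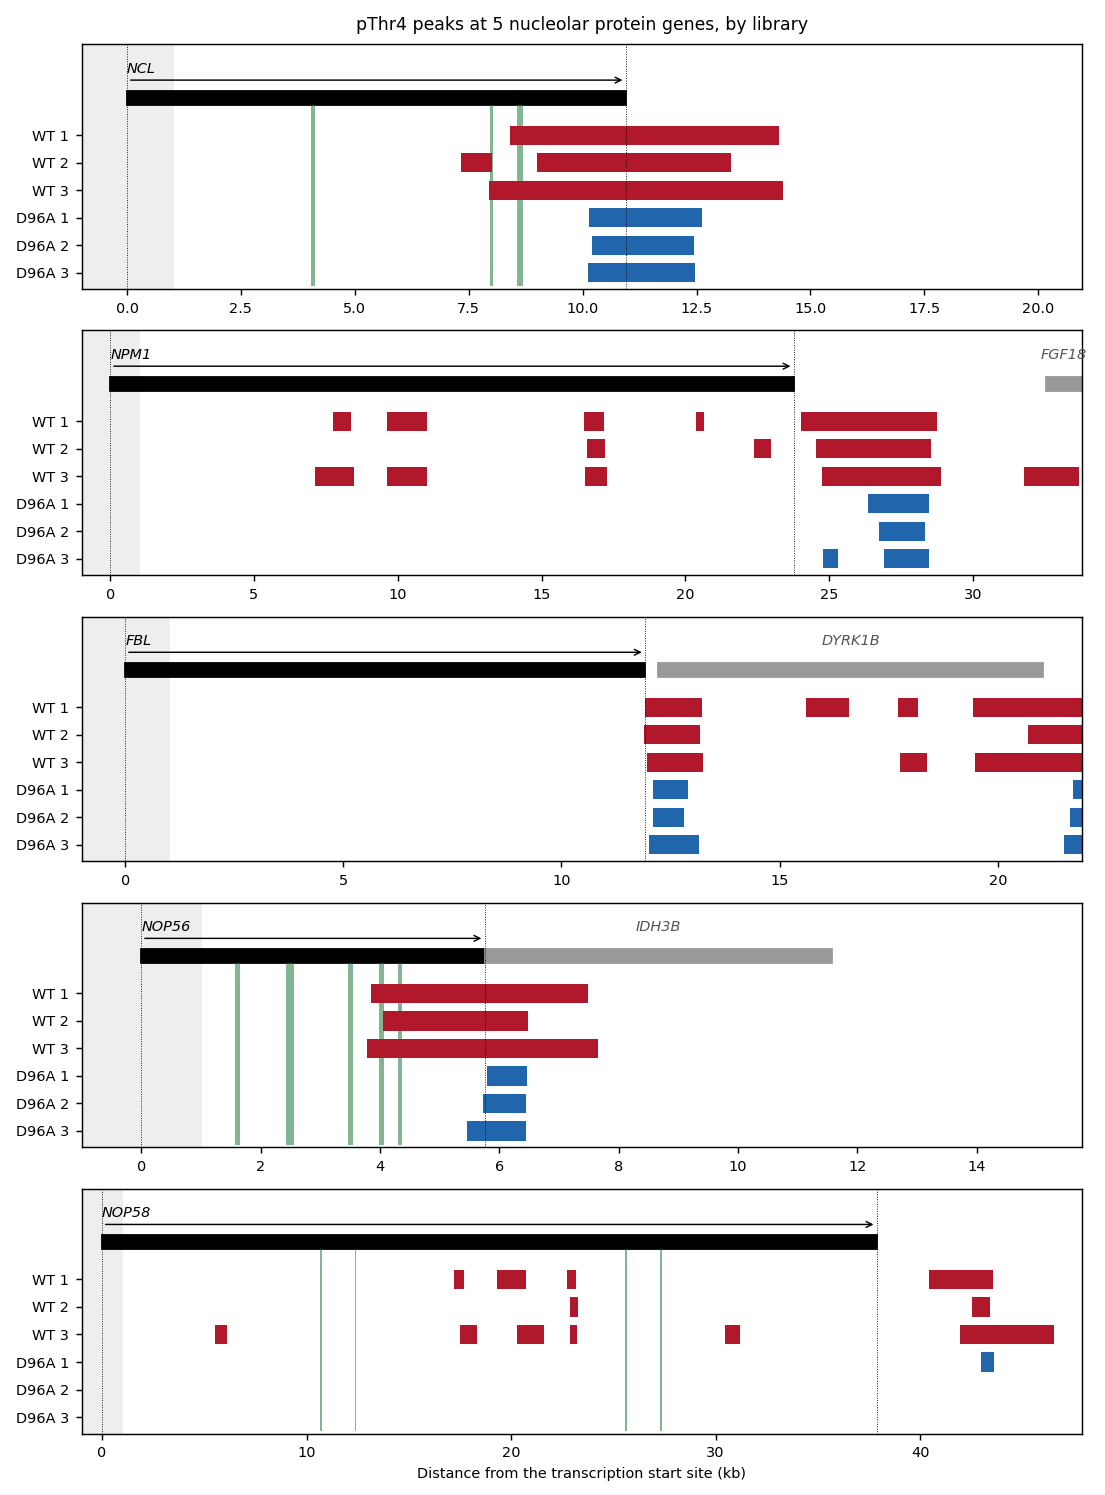
Peaks at the 5 genes in each library, drawn in the direction of transcription against the distance from the transcription start site in kb. Red bars are peaks of SCP1_WT replicates 1 to 3, blue bars are peaks of SCP1_D96A replicates 1 to 3, black boxes are the genes, grey boxes are neighbouring protein-coding genes, green lines are snoRNA genes, dotted lines are gene start and end, and the shaded zone is within 1 kb of the start. The shaded zones hold no peak, the blue bars lie across or after the gene end, and red bars within the gene are most numerous in NPM1 and NOP58.

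At the gene starts, no peak was listed within 1 kb of the transcription start site (TSS) in any of the 30 combinations of gene and library. The peak nearest to the TSS began 3791 bp into NOP56, 5525 bp into NOP58, 7136 bp into NPM1, 7325 bp into NCL and 11897 bp from the FBL start. Across all genes, 6.82% had a promoter peak in at least 2 of 3 libraries with active SCP1, and 1.84% had one with inactive SCP1, so 0 of 5 genes is near these shares. Since a list holds only peaks above its cutoff, weaker signal at these starts cannot be judged.

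After the gene ends, a peak within 10 kb of the transcription end site (TES) was listed for all 5 genes in at least 2 of 3 libraries with active SCP1, against 29.5% of all genes. With inactive SCP1 it was listed for NCL, NPM1, FBL and NOP56, against 9.28% of all genes. The same 4 genes had such a peak in all 6 libraries, as did 5.11% of all genes. A peak within 1 kb of the TES was present in all 6 libraries at NCL, FBL and NOP56, as at 3.38% of all genes. Inside the gene, NCL, NPM1, NOP56 and NOP58 held a peak in at least 2 of 3 libraries with active SCP1, against 30.5% of all genes, and NCL and NOP56 did so with inactive SCP1, against 6.16%.

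The length covered by peaks was summed over each window. In NPM1 it was 7739, 5215 and 9513 bp in replicates 1, 2 and 3 of active SCP1 and 2097, 1625 and 2072 bp with inactive SCP1. The 3 active libraries lay well above the inactive ones, with means of 7489 ± 2160 and 1931 ± 266 bp (SD, n = 3 each), a 3.88-fold difference (exact permutation p = 0.1). In NCL the values were 5913, 4955 and 6449 bp against 2474, 2247 and 2355 bp. The groups did not overlap, and the means of 5772 ± 757 and 2359 ± 114 bp (SD, n = 3 each) differed 2.45-fold (exact permutation p = 0.1).

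In FBL the covered length was 5232, 2510 and 4346 bp with active SCP1 against 1015, 982 and 1573 bp with inactive SCP1. Every active library was higher, and the means of 4029 ± 1388 and 1190 ± 332 bp (SD, n = 3 each) differed 3.39-fold (exact permutation p = 0.1). Over the first 5 kb after the gene the FBL difference was 724 bp instead of 2839 bp. Except for 25 bp in SCP1_WT replicate 2, the covered length lay after the FBL end. The gene DYRK1B lies there from 296 to 9108 bp after the TES, so this length cannot be assigned to FBL alone. In NOP56, the shortest of the 5 at 5762 bp, the values were 3636, 2426 and 3865 bp against 658, 722 and 986 bp. The ratio of the means, 3309 ± 773 and 789 ± 174 bp (SD, n = 3 each), was 4.20, again with no overlap (exact permutation p = 0.1).

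In NOP58, the longest of the 5 at 37899 bp, the covered length was 5459, 1264 and 8460 bp with active SCP1. With inactive SCP1 it was 668 bp in replicate 1, and no peak was listed in replicates 2 and 3. Libraries with active SCP1 were all higher but spread widely, with a mean of 5061 ± 3614 bp against 223 ± 386 bp (SD, n = 3 each, exact permutation p = 0.1). Without SCP1_WT replicate 3 the difference was 3139 bp instead of 4838 bp.

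Every library with active SCP1 thus exceeded every library with inactive SCP1 in the windows of 5 of 5 genes, as in those of 23.5% of all genes. None of the 19630 genes showed the opposite order. Adjusted over 19630 genes by the Benjamini-Hochberg method, the exact permutation p was 0.426 for each of the 5. Their differences had a median of 3414 bp, beside 398 bp over all genes. All genes include those without any peak, and neither window length nor expression was matched, so this contrast is not particular to nucleolar genes. When each list was reduced to its 1163 strongest peaks, the length of the shortest list, NCL, FBL and NOP56 had groups that did not overlap, as did 4.46% of all genes. With peaks of a −log10 p-value of at least 6 from every list, the same 3 genes did so, as did 5.94% of all genes. NPM1 and NOP58 overlapped between groups under both settings. Both settings drop whole peaks and leave each kept peak at the width its own list gave it, so they do not test how the cutoff bears on length. The difference in NOP56 was 2520 bp under both, as in the full lists, and that in NCL was 3182 bp under both. In both groups the peak names carried the mark 10 in replicates 1 and 2 and the mark 5 in replicate 3, whose meaning the labels do not give. The names in replicates 1 and 2 also held the word broad, which those in replicate 3 lacked. Within replicates 1 and 2, with 2 libraries per group, the differences were 3074 bp in NCL, 4616 bp in NPM1, 2873 bp in FBL, 2341 bp in NOP56 and 3028 bp in NOP58. Overlap could not arise there, since the full groups have none. Replicate 3 alone held 1 library per group and allowed no test.

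**Figure D2:**
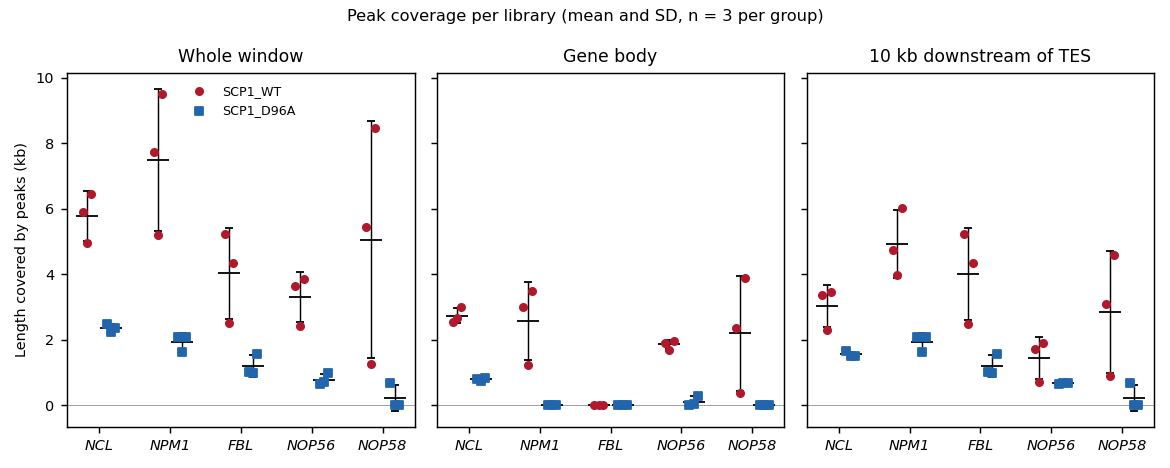
Length covered by peaks in kb at each gene, in the whole window, inside the gene and in the 10 kb after the TES. Each point is 1 library (red circles SCP1_WT, blue squares SCP1_D96A), and bars give the mean and SD of 3 libraries. In the whole window each red point lies above each blue point of the same gene, and inside FBL both groups are at or near 0.

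In order of mean covered length with active SCP1 the genes ranked NPM1, NCL, NOP58, FBL and NOP56, and each neighbouring pair in that order overlapped between libraries. With inactive SCP1 the order was NCL, NPM1, FBL, NOP56 and NOP58. There NCL lay above NPM1 and NPM1 above FBL in every library, whereas FBL and NOP56, and NOP56 and NOP58, overlapped. These lengths were not scaled by window size, which ran from 16762 bp in NOP56 to 48899 bp in NOP58.

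Within the gene, peaks covered 2554, 2662 and 3003 bp of NCL with active SCP1 against 818, 752 and 844 bp with inactive SCP1. In NOP56 they covered 1912, 1705 and 1971 bp against 0, 35 and 296 bp. This end of NOP56 also lies just past the end of the neighbouring gene IDH3B on the opposite strand. The length there cannot be assigned to NOP56 alone. In NPM1 peaks covered 2998, 1222 and 3480 bp, and in NOP58 they covered 2353, 377 and 3879 bp, with none listed in any inactive library. The groups did not overlap in these 4 genes, as in 14.3% of all genes, whereas FBL held 25 bp in SCP1_WT replicate 2 and none elsewhere.

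NCL (gene 4691, chr2:231453531-231464484, minus strand) had its main peak across the gene end in all 6 libraries. With active SCP1 the peak began at −2553, −1966 and −3002 bp from the TES, where negative positions are inside the gene, and it ended at 3359, 2293 and 3446 bp. With inactive SCP1 it began at −817, −751 and −843 bp and ended at 1656, 1495 and 1511 bp. Both edges lay further out in every active library, and the starts varied far less among inactive than among active libraries. The mean start differed by −1703 bp between the groups, or −1476 bp within replicates 1 and 2.

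NOP56 (gene 10528, chr20:2652632-2658393, plus strand) had a single peak in each library, at the gene end. It began at −1911, −1704 and −1970 bp with active SCP1 and at 41, −34 and −295 bp with inactive SCP1, a mean difference of −1766 bp. It ended at 1724, 721 and 1894 bp against 698, 687 and 690 bp, so on that side SCP1_WT replicate 2 was only slightly longer than the inactive libraries. IDH3B, which encodes a subunit of mitochondrial isocitrate dehydrogenase, runs towards NOP56 on the opposite strand with a gap of 1 bp. The lists carry no strand, so polymerase ending on either gene cannot be told apart there.

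FBL (gene 2091, chr19:39834458-39846379, minus strand) had a short peak just after its end. It began at 4, −24 and 33 bp from the TES with active SCP1 and at 166, 169 and 80 bp with inactive SCP1, a mean difference of −134 bp. It ended at 1304, 1262 and 1317 bp against 979, 886 and 1239 bp. Unlike at NCL and NOP56, the peak barely entered the gene in any library.

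Among the 663 genes with a gene-end peak in all 6 libraries, the upstream edge lay further upstream in every active library at 60.6%, and the downstream edge further downstream at 56.9%. NCL, NOP56 and FBL were among both. The median differences over these genes were −1292 bp upstream and 1035 bp downstream, and the adjusted p was 0.164 and 0.175 in turn for each of the 3 genes (exact permutation test, Benjamini-Hochberg). Each of these shifts, taken singly, was thus seen at most such peaks. The start positions are a measure added after the values were seen.

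NPM1 (gene 4869, chr5:171387116-171410900, plus strand) had a broad downstream peak that began later. With active SCP1 it ran from 244 to 4984 bp, from 770 to 4762 bp and from 984 to 5095 bp after the TES in replicates 1, 2 and 3. With inactive SCP1 a peak ran from 2585 to 4681 bp, from 2945 to 4569 bp and from 3143 to 4685 bp, and replicate 3 had a second one from 1007 to 1535 bp. The far end of this stretch lay further out in every active library, and the nearest start of SCP1_D96A replicate 3 lay close to that of SCP1_WT replicate 3. SCP1_WT replicate 2 also had a peak from −1386 to −800 bp. The start of FGF18, a fibroblast growth factor gene 8746 bp further along, lay under a peak of SCP1_WT replicate 3 only.

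NOP58 (gene 51602, chr2:202265763-202303661, plus strand) had no peak within 1 kb of its TES. Its downstream peaks lay from 2548 to 5653 bp, from 4626 to 5512 bp and from 4053 to 8633 bp with active SCP1, and from 5065 to 5732 bp in SCP1_D96A replicate 1. The 4 peaks share the stretch just after 5 kb. No other protein-coding gene lay in the windows of NOP58 and NCL.

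Peaks that lay inside a gene and ended over 1 kb before its TES were listed with active SCP1 alone in these 5 genes. NPM1 had 4, 1 and 3 of them in replicates 1, 2 and 3, NOP58 had 3, 1 and 5, and NCL had 1, in replicate 2. One site in NPM1, at 16.5 to 17.3 kb from the TSS, was listed in all 3 active libraries, with deposited fold enrichments of 4.58, 3.64 and 4.37. Sites at 7.14 to 8.49 kb and at 9.61 to 11.0 kb were listed in replicates 1 and 3. In NOP58 one site, at 22.8 to 23.3 kb from the TSS, was listed in all 3 active libraries, with fold enrichments of 3.68, 3.20 and 3.00. The medians of the 3 active lists were 3.39, 3.53 and 3.11. The NOP58 site was near them in each library, at 1.09, 0.907 and 0.963 times the median. The NPM1 site was near the median in replicate 2 (1.03 times) and above it in replicates 1 and 3 (1.35 and 1.40 times).

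Of the 12 snoRNA genes, 4 were overlapped by a peak in at least 2 of 3 libraries with active SCP1, SNORD20 and SNORA75 in NCL and SNORD56 and SNORD57 in NOP56. Of all 618 snoRNA genes inside protein-coding genes, 3.40% were. With inactive SCP1 none of the 12 was overlapped in any library, and 0.162% of the 618 were overlapped in at least 2 of 3. SNORD57, the last snoRNA of NOP56 with 1383 bp left to the TES, was wholly covered in all 3 active libraries. SNORD56, with 1699 bp left, was covered over 100, 8.45 and 100% of its length. SNORD56 and SNORD57 also lie just past the end of IDH3B on the opposite strand. Their coverage therefore cannot be assigned to NOP56 alone. SNORA75, with 2269 bp left in NCL, was covered over 100, 0 and 100%, and SNORD20, with 2913 bp left, over 0, 73.8 and 100%. The covered snoRNAs are those nearest to the ends of their hosts. In NCL replicates 1 and 2 each overlapped a different one of SNORA75 and SNORD20, so without SCP1_WT replicate 3, or within replicates 1 and 2, the number overlapped in at least 2 libraries was 2, SNORD56 and SNORD57.

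The other 8 snoRNAs were covered in none of the 6 libraries. SNORD82, shown above, lies 6837 bp before the NCL end, and SNORD86 lies 2211 bp before the NOP56 end, upstream of each peak there. SNORA51 and SNORD110 lie further upstream in NOP56. SNORD70, SNORD70B, SNORD11B and SNORD11 lie 27143, 25474, 12233 and 10527 bp before the NOP58 end, between the listed peaks of that gene. By library, 3, 3 and 4 of the 12 were overlapped with active SCP1, beside 4.21, 2.10 and 6.80% of the 618. Since each snoRNA is far shorter than a peak, these counts follow where peaks end and carry no separate measurement of the snoRNA.

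**Figure D3:**
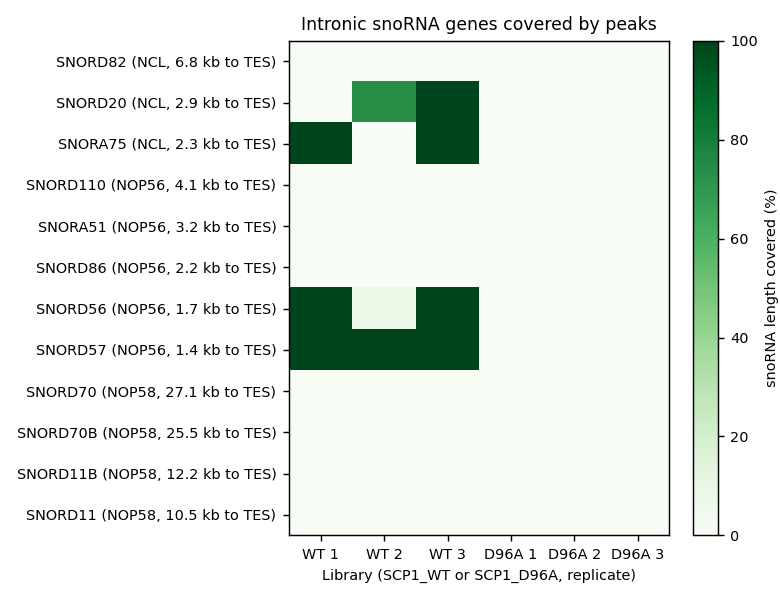
Share of each snoRNA gene covered by peaks, in percent, by library, with the host gene and the distance left to the host's TES beside each name. SNORD57 is covered in the 3 SCP1_WT libraries, SNORD56, SNORA75 and SNORD20 in part of them, and the remaining 8 rows and all SCP1_D96A columns are at 0.

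The peak after FBL also overlies the start of the next gene. DYRK1B, which encodes a protein kinase, follows FBL on the same strand after a gap of 295 bp, and its TSS at 39834162 on chromosome 19 lay under the peak in all 6 libraries. The peak therefore cannot be assigned to the end of FBL or to the start of DYRK1B. The 250 bases before the DYRK1B start are shown for that reason, as chr19:39834163-39834412 on the minus strand of GRCh38.p14 (RefSeq), 5′ to 3′, and at least 127 of them lay under the peak in every library. Capitals mark the CCAAT motif, here on the opposite strand as ATTGG, and the motif CACGTG.
DYRK1B: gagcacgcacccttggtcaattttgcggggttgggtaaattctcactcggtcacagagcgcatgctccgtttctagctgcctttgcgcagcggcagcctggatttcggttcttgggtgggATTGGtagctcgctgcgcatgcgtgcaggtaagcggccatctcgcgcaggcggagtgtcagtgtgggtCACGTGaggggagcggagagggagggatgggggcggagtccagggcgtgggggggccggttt
On both strands, CCAAT occurred in 32.0% and CACGTG in 6.34% of the same 250 bases of 35116 RefSeq promoters. The GC content was 63.2%, beside a median of 58%. The matches describe letters and are not binding sites. Further peaks lay near the DYRK1B end, and the last of them passed the edge of the FBL window in all 6 libraries.

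The deposited fold enrichment (column 7, the ratio of a library to its background) and −log10 p-value (column 8) describe a peak within its own list and have no common scale between libraries. At the peak after FBL, fold enrichment was 8.44, 6.76 and 10.2 with active SCP1, against 6.74, 4.53 and 5.63 with inactive SCP1. All active libraries were higher, SCP1_WT replicate 2 by little over SCP1_D96A replicate 1 (exact permutation p = 0.1). Its −log10 p-values were 33.9, 23.4 and 44.02 against 20.5, 11.4 and 15.0. By −log10 p-value it ranked 6 of 12625, 11 of 6680 and 3 of 36892 peaks with active SCP1, and 10 of 2466, 52 of 1163 and 33 of 2699 with inactive SCP1. It was among the strongest peaks of the active lists.

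The NCL peak had fold enrichments of 7.40, 7.72 and 7.65 with active SCP1 against 7.04, 6.63 and 8.35 with inactive SCP1, which overlapped (exact permutation p = 0.7). Its −log10 p-values were 17.7, 18.3 and 19.0 against 14.6, 14.3 and 18.9, and it ranked 38, 27 and 49 against 37, 28 and 15. The NCL peak was longer with active SCP1 (mean width 5541 against 2359 bp), while its deposited enrichment did not separate the groups. Each value describes a peak of its own width, without a common scale, so this overlap does not show equal signal.

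The NOP56 peak had fold enrichments of 3.59, 4.19 and 3.98 against 3.69, 3.93 and 4.22 (exact permutation p = 0.9), and −log10 p-values of 7.17, 9.51 and 8.91 against 7.52, 9.82 and 9.19. The values overlapped although the peak covered more of the gene in every active library, and again overlap does not show equal signal. The strongest peaks after NPM1 had fold enrichments of 4.24, 3.68 and 4.39 against 4.04, 3.65 and 4.08 (exact permutation p = 0.5), with −log10 p-values of 6.998, 5.62 and 7.38 against 6.27, 5.26 and 5.59. The strongest peaks of the NOP58 window had 3.68, 3.52 and 3.59 with active SCP1 and 3.95 in the single inactive library with a peak, with −log10 p-values of 5.58, 5.08 and 5.43 against 5.84. NPM1, NOP56 and NOP58 thus carried moderate peaks, below those of NCL and FBL in every library.

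Divided by the median of its own list, the fold enrichment of the strongest peak was 2.56 ± 0.679 at FBL with active SCP1 and 1.46 ± 0.293 with inactive SCP1 (SD, n = 3 each, exact permutation p = 0.1). At NCL it was 2.28 ± 0.158 against 1.90 ± 0.242 (SD, n = 3 each, exact permutation p = 0.1). Neither pair of groups overlapped, as for the gene-end peaks of 60.0% of the 663 genes. At NPM1 the means were 1.23 and 1.02 (exact permutation p = 0.3, n = 3 each), and at NOP56 they were 1.18 and 1.02 (exact permutation p = 0.2, n = 3 each), with overlap. List medians were lower with active SCP1, so this ratio moves with the length of the list.

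**Figure D4:**
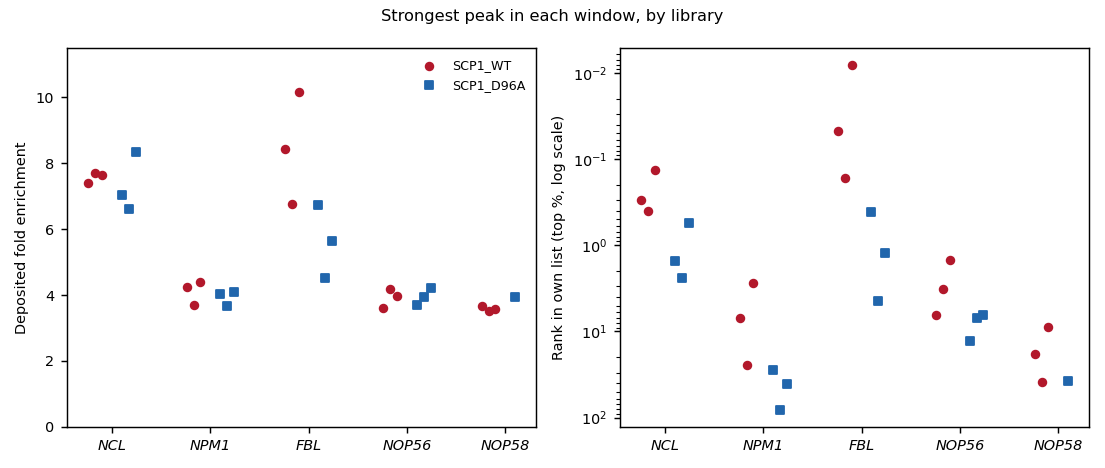
Strongest peak in each gene window by library, as the deposited fold enrichment (left) and as the rank in the library's own list by −log10 p-value, in percent from the top (right, log scale with the strongest peaks uppermost). Red circles are SCP1_WT and blue squares SCP1_D96A libraries, and NOP58 has 1 blue point. In each library FBL and NCL lie above the other genes in both panels.

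The genes most like NCL, NPM1, NOP56 and NOP58 were found by the mean absolute difference in the percent covered over 18 values (promoter, gene body and downstream zone in 6 libraries), over libraries that differ in list length. NCL was nearest to FAM8A1 (1.36 percentage points), then to LGALS2 and BSG. NPM1 was nearest to SMARCC2 (2.18), VPS51 and DAP3. NOP56 was nearest to LENG8 (2.40), COX19 and CLPTM1L, and NOP58 to SIPA1L3 (1.07), PRPSAP1 and NACAD. The 5 nucleolar protein genes were themselves left out of this search, so likeness among them was not tested.

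Other genes of the snoRNA and ribosome pathways were read in the same way from lists chosen by name. Of 9 further genes of box C/D particles and their assembly, 6 had active libraries all above inactive ones (23.5% of all genes), with a median difference of 3581 bp and no promoter peak in at least 2 of 3 libraries. RUVBL1 and RUVBL2, the ATPases of the assembly complex, differed by 7872 and 7715 bp. The arginine methyltransferase gene PRMT1 covered 7989 ± 1463 bp against 1449 ± 1395 bp (SD, n = 3 each). ZNHIT3, an assembly factor, had 8584, 546 and 6199 bp with active SCP1 and no peak with inactive SCP1.

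Of 8 genes listed for box H/ACA particles and their assembly, 3 had active libraries all above inactive ones, TCOF1, NHP2 and DKC1, beside 23.5% of all genes. The median difference of the list was 931 bp. DKC1, the pseudouridine synthase, covered 6707, 5966 and 6072 bp against 1367, 404 and 1714 bp. NOLC1, which encodes a chaperone of snoRNA particles, had a promoter peak in all 6 libraries, with fold enrichments from 4.30 to 6.54, and NHP2 in 3. In at least 2 of 3 active libraries, 2 of the 8 genes had a promoter peak, beside 6.82% of all genes.

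Of 35 other ribosome biogenesis and nucleolar genes, 21 had active libraries all above inactive ones (23.5% of all genes), with a median difference of 2138 bp, and 6 had a promoter peak in at least 2 of 3 active libraries (6.82% of all genes). RRP1B, NOP14, BOP1 and MKI67 had the largest differences among the 21, from 7248 bp in MKI67 to 10461 bp in RRP1B. NAT10, the RNA cytidine acetyltransferase, had a promoter peak in all 6 libraries with fold enrichments from 5.46 to 7.79, and NOP2, an rRNA methyltransferase, in 5. A peak in the 10 kb after the TES in at least 2 of 3 libraries was listed for 23 of the 35 with active (29.5% of all genes) and 12 with inactive SCP1 (9.28%).

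Of 44 other protein-coding hosts of snoRNAs, 21 had active libraries all above inactive ones (23.5% of all genes), with a median difference of 1638 bp. A downstream peak was listed for 35 of them with active SCP1 (29.5% of all genes) and for 31 with inactive SCP1 (9.28%), and a promoter peak for 1 in each group, EIF4A1, a translation initiation factor gene, whose fold enrichments ran from 3.58 to 6.40. EEF2, the translation elongation factor, covered 8978, 9500 and 10340 bp against 3949, 2131 and 3285 bp. RPL3, a ribosomal protein gene, covered 6565, 3850 and 12065 bp against 1506, 1997 and 1729 bp. TNPO2 and PRRC2A differed by 11408 and 7110 bp.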

How the data were processed

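Data on pThr4 in HEK293 lysate incubated with active or inactive SCP1 were read from 6 deposited peak lists in the broad-peak layout of MACS, 1 for each library, so peaks were not called on pooled reads. The authors deposited for each peak a fold enrichment (a ratio), the −log10 of a p-value and of a q-value, and a score that was not used. In each list the smallest −log10 q-value deposited was just over 1, as after a q cutoff of 0.1. Per the labels, FastQC, cutadapt 4.6 and Bowtie2 2.5.2 were used with hg38. The caller's version, its control and read filters are not given in the sources used here. Depth is unknown, and the precision rests on 3 replicates per group.

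The autosomes (1 to 22) and X were analysed with Python 3.11.15, numpy 2.4.6 and pandas 2.3.3. Gene positions came from RefSeq GRCh38.p14. Strand came from the RefSeq promoter table for 15812 genes and by symbol from GENCODE release 44 for 3818, NOP58 included, which left 19630 of 19974 protein-coding genes. GENCODE positions are on GRCh37 and gave only strands, intron numbers and snoRNA sequences. Promoter, downstream and snoRNA overlaps needed at least 1 bp. Covered length was compared by an exact permutation test with Benjamini-Hochberg adjustment over all genes, and p-values measure the spread between these 6 libraries. The code was tested on simulated peaks.

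The 5 genes and the lists were chosen with earlier results of these data known. From each list, up to 4 genes without overlap between the groups and with the largest difference in covered length were named, and up to 2 with promoter peaks in most libraries. Likeness left out genes within 20 kb of the 5 genes. The genes most like FBL and 1 gene named by this rule are not reported here. Alternatives were lists of equal length, a common p cutoff, a −log10 q-value of at least 2, a 5 kb downstream window, 50% overlap, leaving out each library, replicates 1 and 2 alone, and the replicate number as a block.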

Additional observations from a re-analysis of the deposited data

How the results depend on the processing

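In covered length, 63 of 65 values under 13 alternatives had the same direction and 60 of 65 had no overlap between groups. Leaving out 1 library, replicates 1 and 2 alone and the replicate block could change neither, since the full groups do not overlap. Their share of both counts was fixed in advance, so the counts do not measure stability. Only the settings for the lists, the window and the peak overlap could change a call. NCL, FBL and NOP56 kept the call under each of these, and so under all 13. For the replicate block the call is that all 3 same-numbered differences were positive. The list settings keep each peak at the width its own list gave it, so at genes with 1 strong peak per library they say little about stability. With equal peak numbers the differences were 1251 bp in NPM1 (exact permutation p = 0.5) and −223 bp, a reversed direction, in NOP58, and with a common p cutoff they were 2735 bp in NPM1 (exact permutation p = 0.4) and 0 bp in NOP58, since no peak of NOP58 passed it. With the stricter −log10 q cutoff of 2 the NOP58 difference was 2549 bp (exact permutation p = 0.4). The number of genes without overlap was 3 with equal peak numbers and 3 with a common p cutoff, instead of 5. These settings keep fewer peaks, mostly from the lists of active SCP1. Leaving out 1 library at a time gave differences of 3075 to 3822 bp in NCL, 4546 to 6695 bp in NPM1, 2238 to 3599 bp in FBL, 2242 to 2962 bp in NOP56 and 3139 to 6737 bp in NOP58. Overlap could not arise there. The number of snoRNAs overlapped ranged from 2 to 4 when 1 library was left out and was 2 within replicates 1 and 2.

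Same-numbered libraries of the 2 groups had correlations of deviations of −0.010, 0.362 and 0.230 for replicates 1, 2 and 3 over 19630 genes. SCP1_WT replicates 2 and 3 each correlated best with their own number. SCP1_WT replicate 2 had −0.283 with SCP1_D96A replicate 3, and SCP1_WT replicate 3 had −0.291 with SCP1_D96A replicate 2. SCP1_WT replicate 1 had only small values (−0.010, 0.049 and −0.046 with SCP1_D96A replicates 1, 2 and 3). Whether the numbers pair the libraries was thus not settled, and the main test left them unpaired. With the replicate number as a block, the differences stayed at 3414, 5558, 2839, 2520 and 4838 bp in NCL, NPM1, FBL, NOP56 and NOP58, each positive in 3 of 3 pairs (exact sign-flip p = 0.25, the smallest possible). Groups without overlap make every pair positive, so the block could change no call. A blocked fit was not run for peak edges or for counts other than the number of genes without overlap. Lists without read counts do not show whether a missing peak means less signal or less depth, and peak edges move with each list's cutoff.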
